A study of Mus musculus with 16 samples.

Results

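The genes described here belong to the transcriptional response to low oxygen and to glycolysis, the pathway that splits glucose into pyruvate. They were 35 named genes, chosen by symbol, and all 35 were found among the 26466 genes of the table that holds all 16 libraries. By role they comprised 12 targets of the hypoxia-inducible factors (HIFs), 3 membrane transporters, 14 glycolytic enzymes, 2 regulatory enzymes of the PFKFB family and 4 genes of the oxygen-sensing machinery itself. RNA was sequenced in bulk from transplanted mouse glioblastomas of 2 lineage-based models, labelled Type 1 and Type 2. The groups were 4 Type 2 TAM depleted, 4 Type 2 Control, 3 Type 1 TAM depleted and 5 Type 1 Control tumours. TAMs, or tumour-associated macrophages, are the microglia and blood-derived macrophages found inside a tumour. All 16 tumours were transplanted. The sources used here do not give the means of depletion, the alleles and strains, the ages and sex of the animals, what the Control tumours received or the time of collection, which limits what each group can model.

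HIF is a dimer of an oxygen-regulated alpha subunit, Hif1a or Epas1 (HIF-2α), with the constant partner Arnt. When oxygen is plentiful, prolyl hydroxylases of the Egln family mark the alpha subunit, the Vhl ubiquitin ligase binds the mark, and the subunit is destroyed. When oxygen is scarce the alpha subunit persists, and the dimer binds short DNA elements with the core ACGTG or GCGTG beside genes for pH control, oxygen sensing, blood vessel growth, mitochondrial turnover and glucose use. Many HIF targets are well known from the hypoxic zones around necrosis in glioblastoma, and glycolytic enzymes are both HIF targets and housekeeping genes of neurons and glia.

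Promoters of genes that passed a test below, and of Ldha, are shown because they carry this core. Each line holds the 250 bases before the RefSeq transcription start (GRCm38.p6), read 5′ to 3′ on the gene's own strand. Capitals mark ACGTG or GCGTG on either strand, so the reverse forms CACGT and CACGC are in capitals as well. Overlapping matches merge, as in CACGTG, which counts as 1 match on each strand.
Car9, chr4:43506776-43507025, plus strand: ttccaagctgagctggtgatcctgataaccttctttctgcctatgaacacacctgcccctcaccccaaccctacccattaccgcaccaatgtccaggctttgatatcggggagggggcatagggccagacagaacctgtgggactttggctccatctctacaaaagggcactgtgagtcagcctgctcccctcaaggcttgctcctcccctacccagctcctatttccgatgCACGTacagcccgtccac
Egln3, chr12:54203875-54204124, minus strand: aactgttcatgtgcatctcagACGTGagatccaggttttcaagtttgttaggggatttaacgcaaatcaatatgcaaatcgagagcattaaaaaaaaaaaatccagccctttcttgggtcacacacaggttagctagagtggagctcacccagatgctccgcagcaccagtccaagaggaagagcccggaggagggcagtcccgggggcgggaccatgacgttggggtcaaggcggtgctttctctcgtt
Ankrd37, chr8:45999851-46000100, minus strand: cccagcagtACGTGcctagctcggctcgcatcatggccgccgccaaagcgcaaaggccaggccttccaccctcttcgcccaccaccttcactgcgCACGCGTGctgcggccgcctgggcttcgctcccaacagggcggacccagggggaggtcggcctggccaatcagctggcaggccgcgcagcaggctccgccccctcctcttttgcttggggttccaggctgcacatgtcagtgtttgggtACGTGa
Slc16a3, chr11:120948817-120949066, plus strand: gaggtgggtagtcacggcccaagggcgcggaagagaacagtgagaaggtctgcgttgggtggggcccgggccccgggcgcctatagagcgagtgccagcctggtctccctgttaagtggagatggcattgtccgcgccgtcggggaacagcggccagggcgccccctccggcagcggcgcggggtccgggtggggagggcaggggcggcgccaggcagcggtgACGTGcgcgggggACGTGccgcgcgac
Bnip3, chr7:138909507-138909756, minus strand: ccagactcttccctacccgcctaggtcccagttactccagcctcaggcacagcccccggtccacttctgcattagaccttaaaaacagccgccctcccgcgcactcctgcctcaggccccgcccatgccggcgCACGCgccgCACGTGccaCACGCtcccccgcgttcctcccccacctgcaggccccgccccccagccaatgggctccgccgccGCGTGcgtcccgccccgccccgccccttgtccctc
Kdm3a, chr6:71632918-71633167, minus strand: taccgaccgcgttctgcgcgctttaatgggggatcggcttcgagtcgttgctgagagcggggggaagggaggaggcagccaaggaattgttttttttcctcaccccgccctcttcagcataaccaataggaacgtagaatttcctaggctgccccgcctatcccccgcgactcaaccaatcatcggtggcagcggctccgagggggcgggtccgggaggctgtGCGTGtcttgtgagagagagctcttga
Slc2a1, chr4:119108495-119108744, plus strand: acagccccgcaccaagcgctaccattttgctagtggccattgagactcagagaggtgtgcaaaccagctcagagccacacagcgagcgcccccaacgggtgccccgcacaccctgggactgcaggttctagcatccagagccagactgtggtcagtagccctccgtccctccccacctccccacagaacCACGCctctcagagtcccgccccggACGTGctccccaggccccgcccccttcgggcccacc
Ldha, chr7:46845554-46845803, plus strand: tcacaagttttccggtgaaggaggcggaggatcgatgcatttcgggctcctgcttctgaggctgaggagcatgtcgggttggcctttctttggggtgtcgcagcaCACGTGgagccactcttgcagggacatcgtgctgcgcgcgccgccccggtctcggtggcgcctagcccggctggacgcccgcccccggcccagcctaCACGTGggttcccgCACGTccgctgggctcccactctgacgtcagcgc
Car9, Egln3, Ankrd37 and Slc16a3 are the genes that were lower after depletion in Type 2, Bnip3, Kdm3a and Slc2a1 were higher in Type 2 Control than in Type 1 Control tumours, and Ldha is shown as a glycolytic enzyme. The Car9 window held 1 match, which begins 18 bases before the start, and the Ldha window held 5, counting both strands of its CACGTG elements. RefSeq windows were matched by symbol for 32 of the 35 genes, all but Ndrg1, Epas1 and Slc2a3. They gave 46 windows because some genes have several starts, and of the 3 windows of Kdm3a the one with a match is shown. A match was present in 35 of these windows (76.1%), against 38.6% of the 32851 windows of all genes, which were not matched on base composition. By role, 10 of 11 HIF targets and 12 of 14 glycolytic enzymes had a window with a match. These are counts by gene, in which genes with several windows have more chances, and no such count was made over all genes. A match describes letters in this stretch and not a bound site.

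Depth was 4214675 to 18256745 reads per library, and the values below are normalized counts (reads divided by the authors' size factor of each library). No label names the animal behind a library. The p-values therefore reflect how far these libraries spread, which may be technical in part. Libraries fell into sets by reads in olfactory and vomeronasal receptor genes, which brain tumours are not expected to use. A high-background set of 9 libraries had 0.267% to 0.848% of reads in such genes and 13.8% to 58.2% of all reads in the predicted gene Gm10800. A low-background set of 7 had 0.00950% to 0.0779% and 0.0491% to 2.03%. All 5 Type 1 Control libraries were high and all 3 Type 1 TAM depleted libraries were low, so background and depletion cannot be told apart in Type 1. Depth moved with both, at 14271697 to 15950698 reads in Type 1 TAM depleted and 5827506 to 7627674 in Type 1 Control libraries. In Type 2, TAM depleted 3 and 4 and Control 1 and 3 were high, so each Type 2 group held 2 of each set. The glioma and progenitor genes Sox2, Olig2 and Nes had reads in every library. Genes of the Y chromosome also moved with depletion, counted here over the 4 genes Ddx3y, Eif2s3y, Uty and Kdm5d. Their summed normalized count was 0 to 17.1 in Type 2 TAM depleted and 132 to 499 in Type 2 Control libraries, and 0.573 to 105 in Type 1 TAM depleted against 115.5 to 821 in Type 1 Control libraries. The ranges did not overlap in either type, in Type 1 by a narrow margin. There TAM depleted 2 held 174 of the 177 reads of its group, and its value of 105 lay near the lowest control value. It is also the library that stands apart in Type 1 for Car9 and Egln3 below. In Type 2, whatever sets these reads, such as the sex of tumour or host, cannot be told apart from depletion. In Type 1 the same holds but for this 1 library, and the part of these reads in the values below was not tested.

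Corrected for length, the most abundant members in these tumours were glycolytic enzymes, although not every enzyme ranked high. In normalized counts per kilobase of annotated exon, averaged over the 16 libraries, Gapdh, glyceraldehyde-3-phosphate dehydrogenase, stood first at 2651. Enolase 1 (Eno1, 1001), aldolase A (Aldoa, 999.6), phosphoglycerate kinase 1 (Pgk1, 700.3) and the pyruvate kinase Pkm (686) came next, and the first 10 places were all held by enzymes. The enzymes Hk1, Pfkp, Pfkl and Hk2 ranked lower, at 16th, 19th, 20th and 23rd. Hif1a ranked 11th at 187, with Epas1 at 123 and Arnt at 71.1. The order of the alpha subunits was not the same in every library: in Type 2 TAM depleted libraries Hif1a had 160.2 ± 49.0 per kilobase and Epas1 183 ± 144 (SD, n = 4). The HIF targets spanned 184 for Ddit4, an inhibitor of mTORC1 signalling, down to 16.9 for Ankrd37, and the lactate exporter Slc16a3 (MCT4) was last at 15.2. Neighbours in this order were mostly not separated by their spread: Eno1 had 848 ± 257 per kilobase in Type 2 TAM depleted and 1193 ± 244 in Type 2 Control libraries (SD, n = 4 each), and Aldoa had 1649 ± 1018 and 858 ± 331 in the same groups. Exons of 15 members overlap another annotated gene, and the library kit does not mark strand, so their reads cannot be told apart. Among them are Car9 with the antisense RNA Gm12454, and Ankrd37 with Ufsp2 and Lrp2bp. Several glycolytic enzymes, Gapdh above all, also have processed pseudogenes in the mouse, and the sources used here do not say how reads with several matches were counted.

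**Figure D1:**
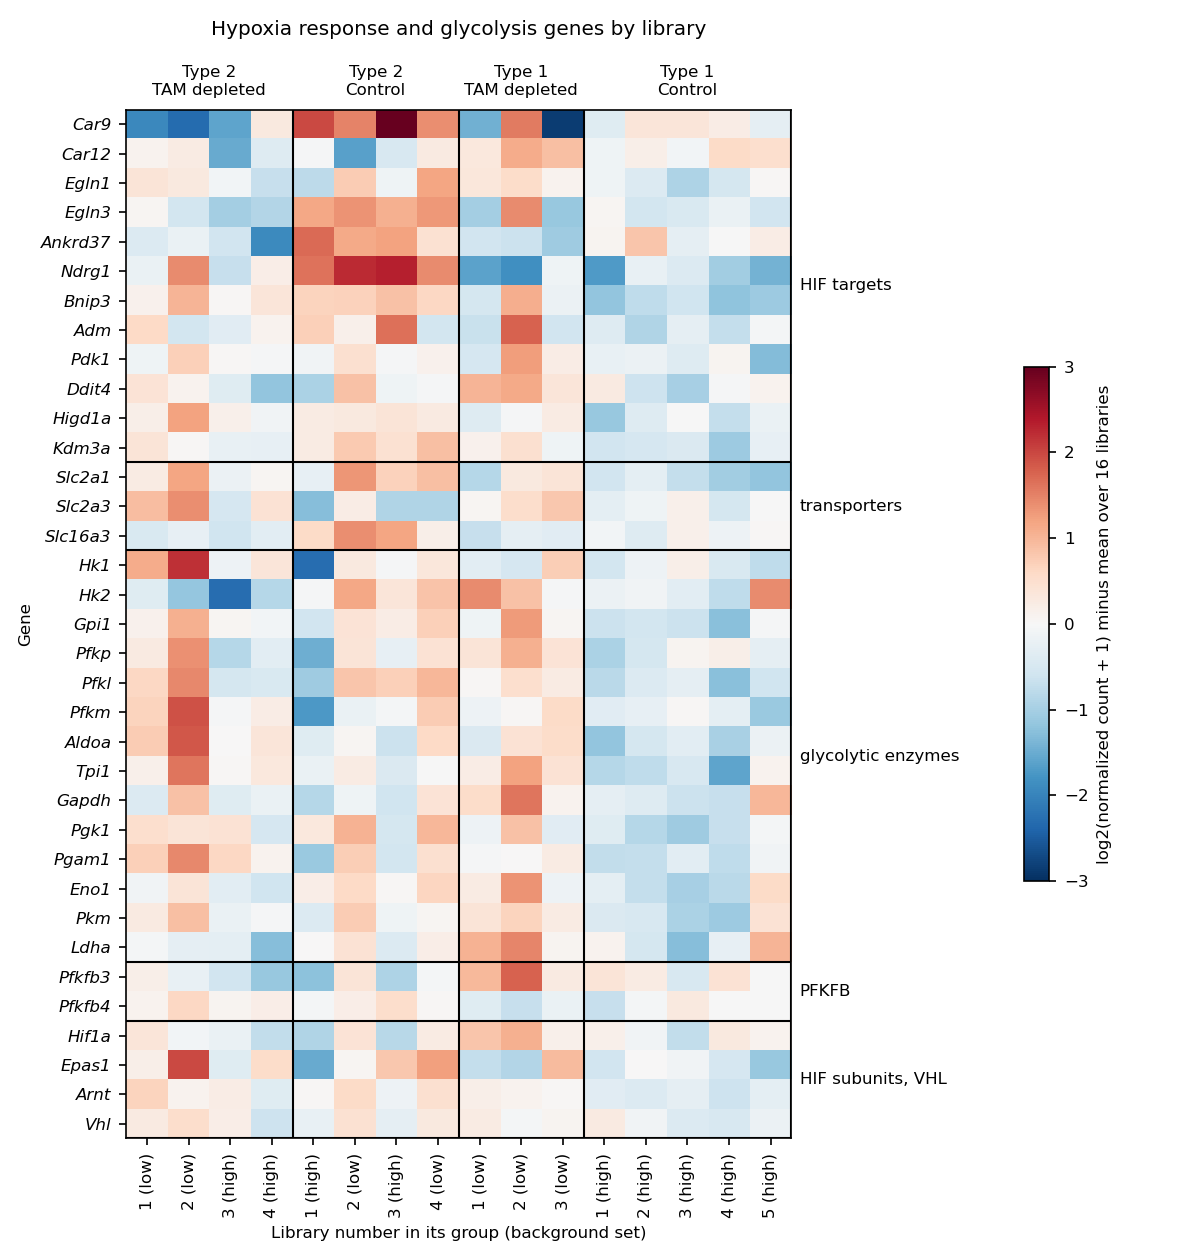
Each row is 1 of the 35 genes and each column 1 of the 16 libraries, ordered by group. Colour gives log2(normalized count + 1) minus the gene's mean over all libraries. Car9, Egln3, Ankrd37 and Ndrg1 are red in the 4 Type 2 Control columns. The enzyme rows are on average bluest in Type 1 Control columns 1 to 4 and in Type 2 Control 1.

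In Type 2 tumours a small set of HIF targets was lower in TAM depleted than in Control libraries, and no glycolytic enzyme passed the test. Of the 35 members, 4 fell and 0 rose by limma-trend at an adjusted p of 0.05. Of the 26463 genes tested 3.61% passed, 1.24% that fell and 2.37% that rose. Without adjustment 10 members were under 0.05, as were 18% of all genes. The 4 were the HIF targets Car9, Egln3 and Ankrd37 and the transporter Slc16a3, whose fold changes ran from 2.35-fold to 10.3-fold lower. The groups of libraries did not overlap in 6 members, all of them lower after depletion, where 3.39% of all genes were lower without overlap and 3.86% higher.

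Car9 (chr4:43506966-43513729, GRCm38) encodes carbonic anhydrase IX, a membrane enzyme that moves acid out of hypoxic cells and a standard marker of tumour hypoxia. Type 2 TAM depleted libraries 1 to 4 had 7.40, 5.38, 9.71 and 37.7 normalized counts, against 125, 89.0, 264 and 82.7 in Type 2 Control libraries 1 to 4. Every depleted library lay below every control, and depleted library 4 was the nearest. The log2 fold change was -3.37 (SE 0.75, limma-trend adjusted p = 0.0244), that is 10.3-fold lower. These values rest on 9 to 23 reads in the depleted libraries and 35 to 297 in the controls.

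Egln3 (chr12:54178981-54203860) encodes the prolyl hydroxylase PHD3, which is both induced by HIF and acts on HIF alpha subunits. Depleted libraries had 122, 80.1, 57.2 and 63.9 normalized counts, against 265, 299.9, 248 and 290.1 in controls. The control libraries were close to each other and the highest depleted value was less than the lowest control by a wide margin. The log2 fold change was -1.81 (SE 0.44, limma-trend adjusted p = 0.0335).

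Ankrd37 (chr8:45996902-46005707), an ankyrin repeat gene that HIF-1 induces, had 15.9, 18.5, 14.02 and 4.92 normalized counts after depletion, against 71.5, 47.9, 50.8 and 29.5 in controls. The groups did not overlap, and depleted library 4, with 3 reads, was lowest. Its log2 fold change was -1.89 (SE 0.45, limma-trend adjusted p = 0.0310). Slc16a3 (chr11:120948480-120960868), the MCT4 transporter that carries lactate out of glycolytic cells, had 53.5, 62.2, 48.5 and 59.0 after depletion and 111, 196, 168 and 83.3 in controls. Depleted libraries were tightly grouped and control library 4 came nearest to them. The log2 fold change was -1.24 (SE 0.29, limma-trend adjusted p = 0.0303).

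**Figure D2:**
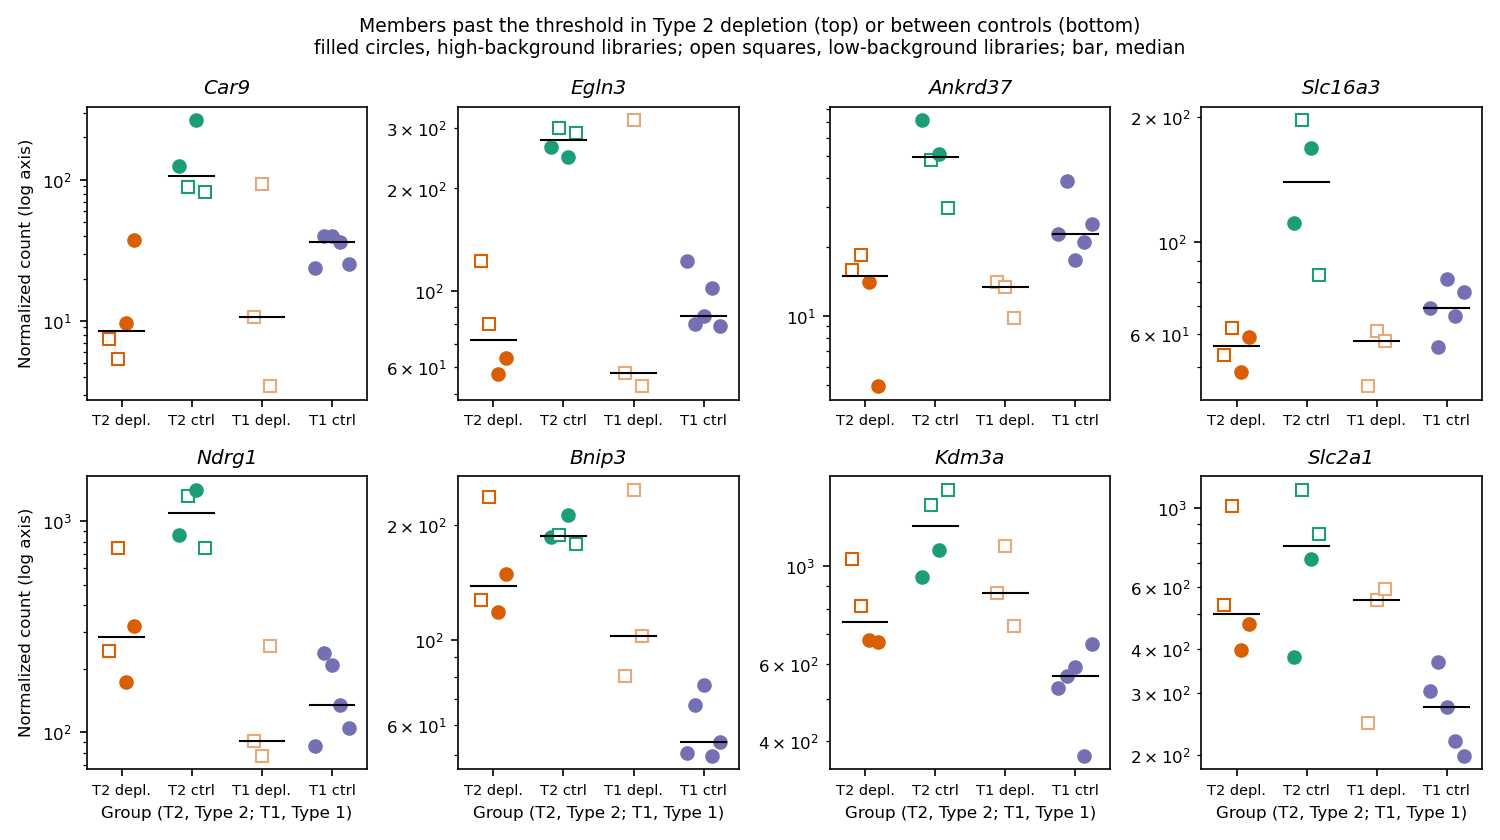
Normalized counts on a log axis for the members that passed the threshold in Type 2 depletion (top row) or between the controls (bottom row), 1 point per library, with a bar at each group's median. In the top row the Type 2 TAM depleted points lie below all Type 2 Control points, and Type 1 TAM depleted library 2 stands apart at 93.2 for Car9 and 316 for Egln3.

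The other 9 HIF targets did not pass. Ndrg1, a stress-response gene induced by hypoxia, came closest, with 244, 744, 174 and 319.6 normalized counts in depleted libraries against 861, 1323, 1412 and 750.2 in controls (log2 fold change -1.72, SE 0.47, limma-trend adjusted p = 0.0518). Those ranges just failed to touch. The rest lay between -0.61 for Kdm3a, a histone demethylase, and 0.08 for Car12, a second membrane carbonic anhydrase. Between them were Egln1 (-0.28), the main oxygen sensor of the family, the mitophagy receptor Bnip3 (-0.33), the vasoactive peptide adrenomedullin (Adm, -0.54), Pdk1 (0.03), which restrains pyruvate entry to mitochondria, Ddit4 (-0.20) and the mitochondrial protein Higd1a (0.06). In all, 9 of 12 HIF targets had a log2 fold change below 0, as had 59.4% of all genes. Their median was -0.43 and that of all genes -0.21.

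Neither glucose transporter passed. Slc2a1 (GLUT1), the HIF-induced transporter of tumour cells and brain vessels, had 531, 1014, 396 and 470.4 normalized counts after depletion and 379, 1130.2, 720.3 and 845 in controls, ranges that overlapped fully (log2 fold change -0.34, SE 0.38, limma-trend adjusted p = 0.661). Slc2a3 (GLUT3), the main transporter of neurons, had 828, 1152, 305 and 587 after depletion and 179, 505, 232 and 232 in controls. Depleted libraries were mostly higher and the ranges overlapped (log2 fold change 1.28, SE 0.38, limma-trend adjusted p = 0.0726).

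None of the 14 glycolytic enzymes passed by limma-trend, with 3 at an unadjusted p under 0.05. Their median log2 fold change was 0.21, and 9 of 14 were above 0, as were 40.6% of all genes. The direction of that median was not stable: it was 0.0014 with upper quartile scaling, -0.18 with quantile normalization, -0.25 with library quality weights, -0.07 without TAM depleted 2 and -0.03 without Control 1. The hexokinases, which trap glucose in the cell, lay at the extremes. Hk2, the hypoxia-induced form, had 255, 146, 66.9 and 180.3 normalized counts after depletion and 318, 732, 420.3 and 593 in controls, without overlap (log2 fold change -1.74, SE 0.48, limma-trend adjusted p = 0.0535). Hk1, the form of normal brain, had 1609.9, 3399.9, 669 and 969 after depletion and 154, 923, 731 and 949.6 in controls, with overlap (log2 fold change 1.29, SE 0.56, limma-trend adjusted p = 0.227). Pgk1 had 2015, 1851, 1909 and 1006 after depletion and 1773, 2934, 993 and 2830.2 in controls (log2 fold change -0.26, SE 0.39, limma-trend adjusted p = 0.747). Ldha, which turns pyruvate to lactate, had 1265, 1098, 1078 and 547 after depletion and 1333, 1772, 1002 and 1521 in controls (log2 fold change -0.53, SE 0.44, limma-trend adjusted p = 0.550). Both sets of ranges overlapped. The other 10 enzymes ran from -0.52 for Eno1 to 1.00 for the phosphofructokinase subunit Pfkm. Pfkfb3 (0.02) and Pfkfb4 (0.08), which set the level of the phosphofructokinase activator fructose-2,6-bisphosphate, and Hif1a (0.10), Epas1 (0.44), Arnt (-0.08) and Vhl (0.03) all had adjusted p of 0.713 or more by limma-trend.

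**Figure D3:**
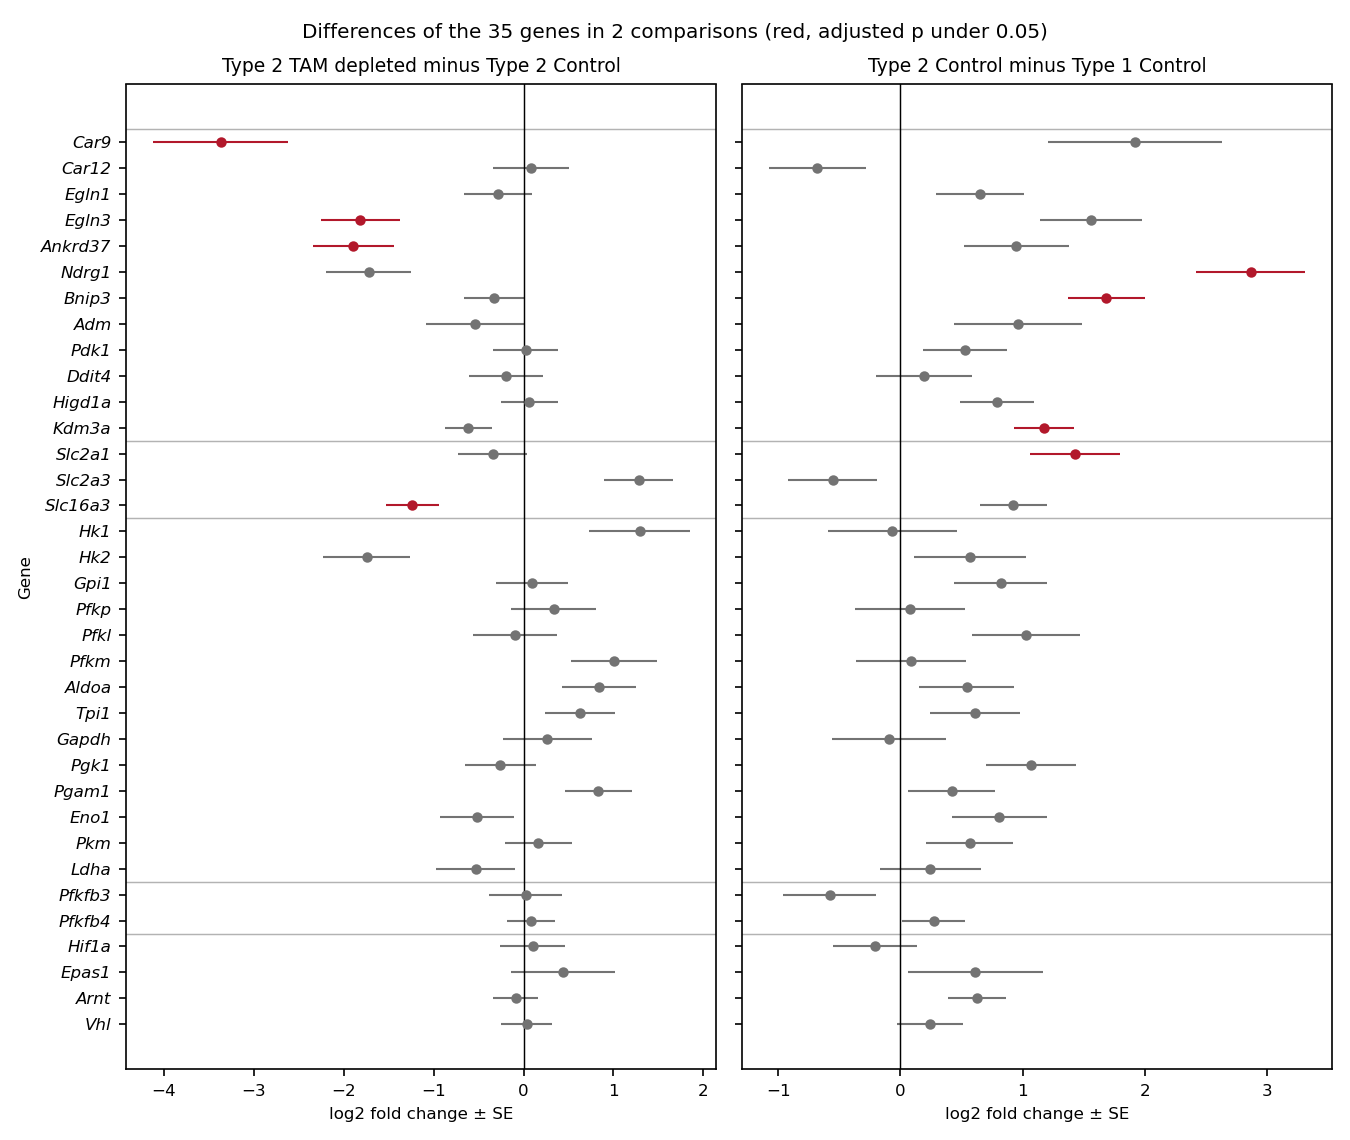
Log2 fold change with its standard error for each of the 35 genes, in Type 2 TAM depleted minus Type 2 Control (left) and Type 2 Control minus Type 1 Control (right), with red for an adjusted p under 0.05. On the left the red points are Car9, Egln3, Ankrd37 and Slc16a3, all below 0, and on the right Ndrg1, Bnip3, Kdm3a and Slc2a1, all above 0.

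Of other genes of the pathway, 2 of 24 further hypoxia genes fell in Type 2 and 0 rose. They were Vegfa, the angiogenic growth factor (log2 fold change -1.65, SE 0.42, limma-trend adjusted p = 0.0414), and Loxl2, a collagen cross-linking enzyme (-2.31, SE 0.59, limma-trend adjusted p = 0.0412). Vegfa had 874, 879.6, 648 and 502 normalized counts in depleted libraries against 1852, 1999, 2592 and 2563 in controls, so its groups did not overlap. Of 5 further genes of the HIF machinery 1 rose, Arnt2, an Arnt relative expressed by neurons (1.75, SE 0.44, limma-trend adjusted p = 0.0378). None of 23 further glycolysis genes passed by limma-trend, with 8 at an unadjusted p under 0.05.

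Other cell types moved with these genes. Neuron markers summed to 24543 to 130783 normalized counts over 15 genes in Type 2 TAM depleted and 3146 to 15894 in Type 2 Control libraries, and 10 of the 15 rose. TAM markers summed to 2586 to 5859 over 20 genes after depletion and 6042 to 16269 in controls, and 5 of the 20 fell. All genes of both lists had reads in every library, and neither sum overlapped between the groups. Endothelial markers, 0 of 12 past the threshold by limma-trend and 2 at an unadjusted p under 0.05, summed to 1653 to 2422 after depletion and 2256 to 4686 in controls. Log2 fold changes were above 0 in 11 of 11 oligodendrocyte (median 1.18) and 11 of 12 astrocyte markers (median 1.51), and in 40.6% of all genes. They were below 0 in 14 of 15 proliferation (median -0.91) and 11 of 11 T and NK cell markers (median -1.255). The same held for 8 of 9 vessel-wall (mural) cell (median -0.82) and 4 of 4 red cell markers (median -1.12), and for 59.4% of all genes. The part of these cell types and of the Y-linked difference in the results above was not tested, and in bulk tumours fewer cells of a type and less RNA per cell cannot be told apart.

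The 4 genes had log2 fold changes below 0 in both background sets of Type 2, but the calls depended on single libraries and on settings. With library quality weights none of the 4 passed by limma-trend (adjusted p from 0.0719 to 0.222), and with quantile normalization Ankrd37 (adjusted p = 0.150) and Slc16a3 (adjusted p = 0.0690) did not. Car9 had log2 fold changes of -3.17 among high-background and -3.57 among low-background libraries, Egln3 -2.06 and -1.57, Ankrd37 -2.70 and -1.09, and Slc16a3 -1.34 and -1.14. Alone, the high-background libraries passed Car9 and Ndrg1, and the low-background libraries passed 0 genes of all tested by limma-trend, with 3502 at an unadjusted p under 0.05. With the background set as a block, 7 members passed, the same 4 with Ndrg1 (adjusted p = 0.0279), Hk2 (adjusted p = 0.0202) and, higher, Slc2a3 (adjusted p = 0.0139), all by limma-trend. Calls over all genes grew as well in that fit, to 1493 higher and 1142 lower, against 627 and 329 without the block. Without Type 2 Control 3 no member passed by limma-trend, and 60 genes higher and 40 lower remained. Without TAM depleted 1 only 1 member passed, Egln3. Without TAM depleted 2 only 1 member passed as well, and it was none of the 4. Without Control 1 the count was 2. Car9 lost its call without TAM depleted 1 or 2 or Control 3, and Ankrd37 without TAM depleted 1 or 2 or Control 1 or 3. Egln3 lost its call without TAM depleted 2, 3 or 4 or Control 1, 3 or 4, and Slc16a3 without TAM depleted 1, 2 or 3 or Control 2 or 3. The limma-trend adjusted p was at most 0.0985 in these fits, and the 4 log2 fold changes stayed below 0.

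In Type 1 tumours no gene passed between TAM depleted and Control libraries by limma-trend (0% of genes, 8019 at an unadjusted p under 0.05), so 0 of the 35 members did, and limma-voom also gave 0. With library quality weights 19 members passed by limma-trend, beside 5209 genes higher and 8512 lower over all genes. The absence of calls therefore depends on that setting. TAM markers summed to 2228 to 5362 normalized counts in Type 1 TAM depleted and 2765 to 5469 in Type 1 Control libraries, ranges that overlapped almost fully, and 0 of the 20 passed by limma-trend, with 2 at an unadjusted p under 0.05 and a median log2 fold change of -0.32. Of the 20, 17 had a log2 fold change below 0 and 3 above, where 48.5% of all genes were above. Csf1r (-0.46), C1qa (-0.09) and Cd68 (0.13) lay nearer 0 than Mrc1 (-2.51) and Adgre1 (-1.67). The last 2 were lower without overlap, as were 28.6% of all genes. The summed markers thus show little of the labelled depletion in Type 1, and single markers differ. Unadjusted, 9 members passed, all higher after depletion, beside 30.3% of all genes in either direction. All 14 enzymes had a log2 fold change above 0, as had 48.5% of all genes, with a median of 0.92 against -0.06 for all genes. With upper quartile scaling 1 enzyme was below 0 and the median was 0.52, and with quantile normalization 2 were and it was 0.25. Groups did not overlap in 9 members that were higher after depletion (10.5% of all genes) and in 1 that was lower, Ankrd37 (28.6% of all genes). The largest enzyme value was that of triosephosphate isomerase, Tpi1, with 1271, 2517 and 1491 normalized counts after depletion and 602, 650.2, 782, 368 and 1186 in controls. Its log2 fold change was 1.33 (SE 0.40, limma-trend adjusted p = 0.103).

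Enzyme values also differed between the background sets within Type 2. Between high- and low-background Type 2 libraries, averaged over both groups, 14 of 14 enzymes were lower in the high set, by a median of 0.81 on the log2 scale, where 48.2% of all genes were lower. Of the HIF targets 10 of 12 were lower in the high set (median -0.35). So were 3 of 3 transporters (median -0.83), 2 of 2 PFKFB genes (median -0.55) and 4 of 4 machinery genes (median -0.76). The difference is thus not particular to the enzymes, and the share of all genes was not matched on level. The sets also differ in depth, with 4214675 to 9159107 reads in high-background and 13054021 to 18256745 in low-background Type 2 libraries, and the cause was not tested. In Type 1 the Control libraries are the high set, so the enzyme values of that comparison and the background cannot be told apart.

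Car9 in Type 1 had 10.7, 93.2 and 3.44 normalized counts after depletion and 23.8, 40.2, 40.0, 36.2 and 25.3 in controls. Depleted library 2 lay above every control and the other two below. The log2 fold change was -0.97 (SE 0.78, limma-trend adjusted p = 0.378). The same library stood out for Egln3, with 57.8, 316 and 52.7 after depletion and 123, 80.4, 85.0, 103 and 79.4 in controls, and for Bnip3 and Adm. This library also held nearly all Y-linked reads of its group, and their part here was not tested. Without this library the Car9 value was -2.21, and without TAM depleted 3 it was -0.0054. Slc2a1 had 246, 551 and 591 after depletion and 303, 366, 272, 219 and 198 in controls (log2 fold change 0.70, SE 0.40, limma-trend adjusted p = 0.231). Pgk1 had 1273, 2622 and 1123 after depletion and 1103, 788, 674, 879 and 1371 in controls (0.74, SE 0.40, limma-trend adjusted p = 0.217). Ldha had 2707, 3669 and 1394 after depletion and 1419, 922, 544, 1122 and 2659.8 in controls (1.05, SE 0.45, limma-trend adjusted p = 0.137). All 3 of these ranges overlapped. Of the further hypoxia, machinery and glycolysis genes 0 passed by limma-trend, with 11 of 24, 1 of 5 and 2 of 23 at an unadjusted p under 0.05.

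The difference between the depletion responses, Type 2 minus Type 1, was tested directly. No gene passed by limma-trend (0% of genes, 2666 or 10.1% at an unadjusted p under 0.05) and limma-voom gave 0 as well. Of the members 10 were under 0.05 without adjustment, all with a difference below 0. With library quality weights 2 members passed by limma-trend, beside 441 genes higher and 307 lower, so the absence of calls depends on that setting. All 12 HIF targets had a difference below 0, where 44% of all genes did, with a median of -1.23. Markers of other kinds moved with them: 15 of 15 neuron genes had a difference above 0 (median 3.79), while 15 of 15 proliferation genes (median -1.50) and 19 of 20 TAM genes (median -1.05) had one below 0. Proliferation markers summed to 2288 to 16928.5 normalized counts in Type 2 TAM depleted and 6754 to 22765 in Type 2 Control libraries, and to 11602 to 27369.5 in Type 1 TAM depleted and 5564 to 15735 in Type 1 Control libraries. Their part in the HIF target values was not tested. For the enzymes 10 of 14 were below 0 with a median of -0.74, and the median of all genes was 0.16. The smallest adjusted p among members was 0.433 by limma-trend, shared by Kdm3a (-1.35, SE 0.38) and Hk2 (-2.48, SE 0.69). Car9 had a difference of -2.40 (SE 1.08), which was -1.16 without Type 1 TAM depleted 2 and -3.36 without Type 1 TAM depleted 3. Egln3 had -1.91 (SE 0.63), Slc2a1 -1.04 (SE 0.55), Pgk1 -0.99 (SE 0.56) and Ldha -1.58 (SE 0.63). The confounding of background with Type 1 depletion enters all of these values.

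Type 2 Control tumours expressed several hypoxia genes more highly than Type 1 Control tumours. Of the 35 members 4 rose and 0 fell by limma-trend, against 3.09% of all genes in either direction, 2.28% that rose and 0.816% that fell. Without adjustment 13 members were under 0.05, as were 13.7% of all genes. Groups did not overlap in 9 members, all higher in Type 2, where 5.03% of all genes were higher without overlap and 1.93% lower. These controls are the same libraries used in the depletion comparisons, so the results are not independent of those above.

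Ndrg1 (chr15:66929318-66969640) had 861, 1323, 1412 and 750.2 normalized counts in Type 2 Control libraries, against 85.7, 238, 209, 134 and 105 in Type 1 Control libraries. The lowest Type 2 value was far above the highest Type 1 value. Ndrg1 was 7.28-fold higher, 2.86 on the log2 scale (SE 0.45, limma-trend adjusted p = 0.00148). Bnip3 (chr7:138890836-138909519), whose product marks mitochondria for removal, had 186, 189, 213 and 178 in Type 2 Control and 50.6, 67.5, 76.2, 49.7 and 54.1 in Type 1 Control libraries. Its values hardly varied within Type 2, and the log2 fold change was 1.68 (SE 0.31, limma-trend adjusted p = 0.00577).

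Kdm3a (chr6:71588972-71632990), which removes methyl groups from lysine 9 of histone H3, had 944, 1379, 1089.8 and 1493 in Type 2 Control and 529, 563, 591, 371 and 666 in Type 1 Control libraries (log2 fold change 1.17, SE 0.25, limma-trend adjusted p = 0.0130). Slc2a1 (chr4:119108711-119137983) had 379, 1130.2, 720.3 and 845 in Type 2 Control and 303, 366, 272, 219 and 198 in Type 1 Control libraries (1.43, SE 0.37, limma-trend adjusted p = 0.0409). For Slc2a1 the groups nearly met, since Type 2 Control 1 was just above the highest Type 1 library. Egln3 (1.56, SE 0.42, limma-trend adjusted p = 0.0541), Slc16a3 (0.92, SE 0.28, limma-trend adjusted p = 0.0886) and Car9 (1.92, SE 0.71, limma-trend adjusted p = 0.196) did not pass, although their groups did not overlap.

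No enzyme passed by limma-trend, with 3 of 14 at an unadjusted p under 0.05. Pgk1 had the largest value, 1.07 (SE 0.37, limma-trend adjusted p = 0.156), and Ldha had 0.24 (SE 0.41, limma-trend adjusted p = 0.769). Median log2 fold changes were 0.95 for HIF targets, 0.55 for enzymes and -0.23 for all genes. Of the HIF targets 11 of 12 were above 0, as were 12 of 14 enzymes and 37.8% of all genes. Among the high-background libraries alone, 2 of Type 2 Control against all 5 of Type 1 Control, the medians were 1.10 for HIF targets, 0.14 for enzymes and 0.13 for all genes, and 6 of 14 enzymes were below 0. In that fit Ndrg1 (2.94), Bnip3 (1.74), Egln3 (1.46) and Car9 (2.46) passed, while Kdm3a (adjusted p = 0.129) and Slc2a1 (adjusted p = 0.166) did not, by limma-trend. Each of the 9 control libraries was left out in turn, and Slc2a1 lost its call without any of them but Type 2 Control 1 (limma-trend adjusted p up to 0.122). TAM markers summed to 6042 to 16269 in Type 2 Control and 2765 to 5469 in Type 1 Control libraries, without overlap, and neuron markers to 3146 to 15894 and 10825 to 39592. Their part in these differences was not tested.

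Further genes of the pathway also passed between the controls. Of 24 further hypoxia genes 5 rose and 0 fell in Type 2 Control tumours, of 23 further glycolysis genes 1 rose and 1 fell, and of 5 further machinery genes 0 passed. The lowest p was that of Pgm1, of the phosphoglucomutase family (2.02, SE 0.31, limma-trend adjusted p = 0.00117). Next came P4ha1, a collagen prolyl hydroxylase (1.90, SE 0.32, limma-trend adjusted p = 0.00285). Loxl2 (2.86, SE 0.56, limma-trend adjusted p = 0.00799) and Vegfa (1.94, SE 0.40, limma-trend adjusted p = 0.0113) followed. P4ha1 had 450.4, 849.7, 946 and 579 normalized counts in Type 2 Control libraries, against 196, 214, 181, 134 and 186 in Type 1 Control libraries, so every Type 2 library was higher.

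No member passed between the depleted groups in the analysis reported. Between Type 2 TAM depleted and Type 1 TAM depleted libraries 0 of 35 members passed by limma-trend and by limma-voom, where 0.185% of all genes passed. With library quality weights 1 member passed by limma-trend, beside 178 genes higher and 251 lower over all genes. Without adjustment 8 members were under 0.05, as were 12.1% of all genes. Groups did not overlap in 4 members that were lower in Type 2 (5.77% of all genes) and in 1 that was higher (3.3% of all genes). Hk2 had the lowest p, with 255, 146, 66.9 and 180.3 normalized counts in Type 2 and 873, 599 and 318 in Type 1 depleted libraries, without overlap (log2 fold change -1.91, SE 0.52, limma-trend adjusted p = 0.163). Car9 (-0.47, SE 0.81), Slc2a1 (0.38, SE 0.42), Pgk1 (0.07, SE 0.42) and Ldha (-1.33, SE 0.47) had limma-trend adjusted p of 0.274 or more. Medians were -0.20 for HIF targets, -0.10 for enzymes and 0.11 for all genes, and that of the enzymes turned to 0.02 with quantile normalization. Without Type 1 TAM depleted 2 both turned, to 0.36 for HIF targets, with 4 of 12 below 0, and 0.16 for enzymes, and Car9 turned to 0.76. In low-background libraries alone, 2 of Type 2 and all 3 of Type 1, the medians were 0.0069 for HIF targets, 0.23 for enzymes and -0.17 for all genes, and 0 members passed by limma-trend, with 7 at an unadjusted p under 0.05. A p above the threshold does not show that the kinds were alike, and with 3 Type 1 libraries the SE of Car9 leaves room for a large difference in either direction.

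HIF targets and enzymes were also set beside each other within libraries. The mean log2(normalized count + 1) of the 12 HIF targets was 6.65 to 7.28 in Type 2 TAM depleted and 7.70 to 8.01 in Type 2 Control libraries. In Type 1 it was 6.75, 7.82 and 6.81 in TAM depleted and 6.71 to 6.90 in Control libraries. The Type 2 Control libraries thus lay above all others except Type 1 TAM depleted 2. The mean of the 14 enzymes was 10.2 to 11.4 in Type 2 TAM depleted and 9.75 to 11 in Type 2 Control libraries, and in both groups the low-background libraries were the higher ones. In the median log2 fold change, HIF targets minus enzymes gave -0.64 for Type 2 depletion, -0.31 for Type 1 depletion, 0.40 between the controls and -0.10 between the depleted groups. These are descriptions of lists chosen with earlier results known, and no test was made on them.

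**Figure D4:**
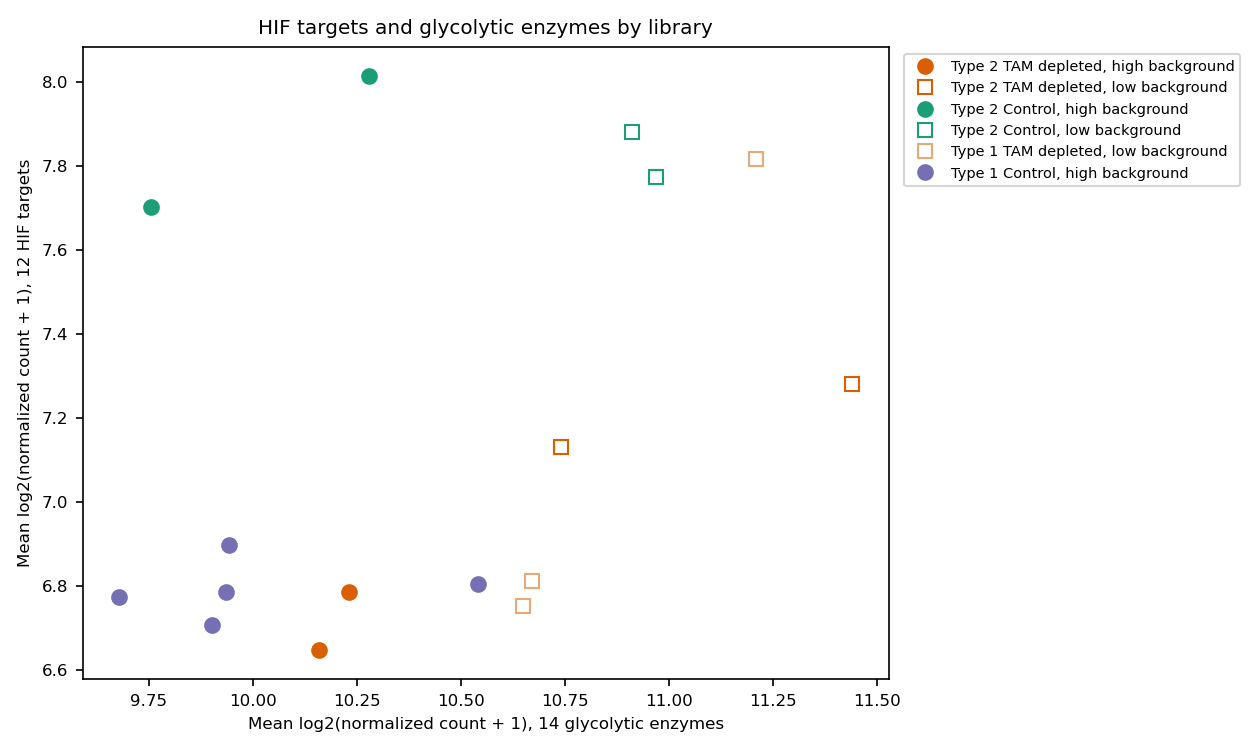
Mean log2(normalized count + 1) of the 14 glycolytic enzymes (x axis) and of the 12 HIF targets (y axis), 1 point per library, filled for high background and open for low. The 4 Type 2 Control libraries lie at 7.70 or above on the y axis at enzyme means from 9.75 to 11, and the 4 Type 2 TAM depleted libraries lie at 7.28 or below.

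The balance of isoforms within a library does not depend on how libraries are scaled. Hk2 made up 18.5%, 5.78%, 12.5% and 21.0% of the length-corrected level of Hk1 and Hk2 in Type 2 TAM depleted libraries, and 74.7%, 53.1%, 45.1% and 47.15% in Type 2 Control libraries. In Type 1 the share was 26.6% to 67.65% in TAM depleted and 30.7% to 74.1% in Control libraries, so the groups overlapped there and not in Type 2. Slc2a1 made up 57.0% to 72.8% of Slc2a1 and Slc2a3 in Type 2 TAM depleted and 81.4% to 88.3% in Type 2 Control libraries. In Type 1 TAM depleted and Control libraries it was 52.8% to 64.4% and 49.0% to 65.5%. Egln3 made up 12.5% to 19.5% of Egln1 and Egln3 in Type 2 TAM depleted and 23.1% to 51.5% in Type 2 Control libraries. In Type 1 it was 9.60% to 33.5% and 15.3% to 27.4%, with overlap. The muscle-type subunit Pfkm was 64.8% to 71.3% of the 3 phosphofructokinase subunits in Type 2 TAM depleted and 47.1% to 61.4% in Type 2 Control libraries. In Type 1 it was 47.3% to 65.0% and 48.8% to 69.3%, with overlap. Hk2 and Egln3 levels themselves did not overlap in Type 2, so their shares are not separate results. How often the shares of other gene pairs fail to overlap was not counted. Epas1 made up 33.8%, 70.7%, 34.3% and 58.4% of Epas1 and Hif1a in Type 2 TAM depleted and 27.4%, 31.2%, 64.4% and 53.5% in Type 2 Control libraries, with overlap. Neuron marker sums do not overlap between the same Type 2 groups, and their part in the shares was not tested.

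**Figure D5:**
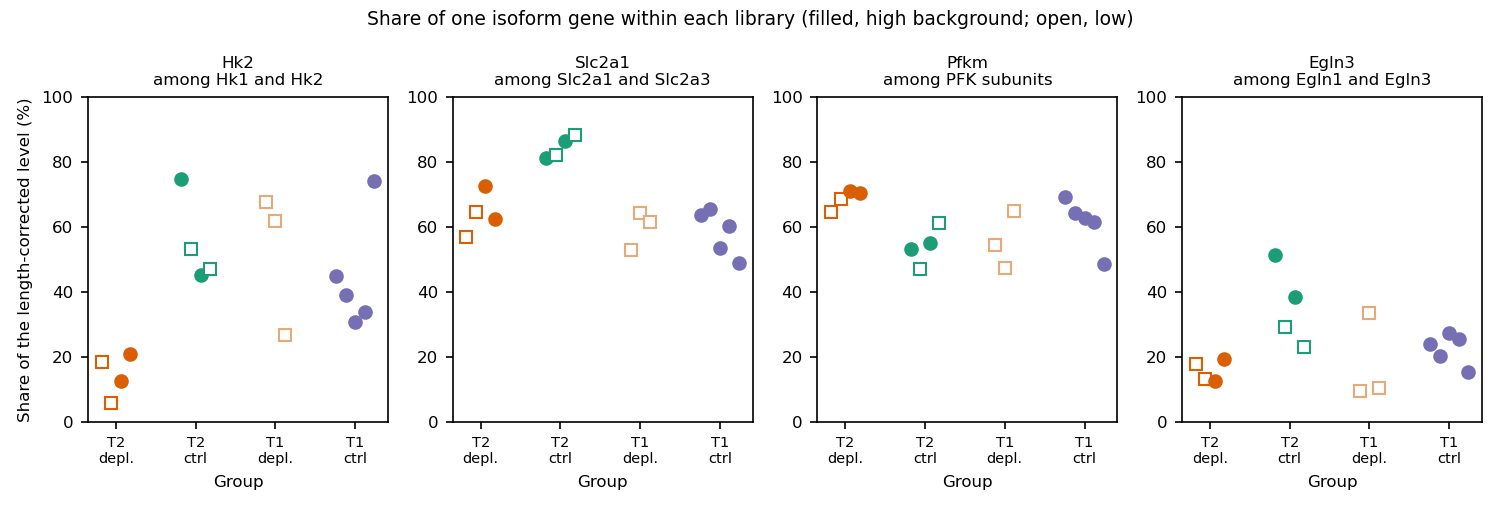
Share, in percent, of 1 isoform gene in the summed length-corrected level of its family, 1 point per library and group, filled for high background and open for low. In Type 2 the depleted and control points do not overlap for Hk2, Slc2a1, Pfkm or Egln3, with Hk2 at 5.78% to 21.0% against 45.1% to 74.7%. In Type 1 they overlap for each of these genes.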

How the data were processed

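RNA from 16 tumours was sequenced in bulk. Per the labels' protocols, RNA came from a TRIzol and miRNeasy Micro extraction, and the libraries were made by SMART-Seq v4 Ultra Low Input, a kit without strand marking. The counting tool and annotation were not given in the sources used here. Per the submitters' processing notes, STAR 2.7.8a, GRCm38 and DESeq2 were used.

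The authors deposited log2 values, variance-stabilized as the values show, with 1 lowest value shared by all columns (3.74). They were inverted to normalized counts, which were whole multiples of 1 read per library in 100% of values (tolerance 0.05 reads). A gene needed a normalized count of 10 in at least 3 libraries, which 26463 reached. The test was limma-trend (limma 3.58.1 under R 4.3.3) of log2(normalized count + 1), in 1 fit of 4 group means over 16 libraries. It was 2-sided, and all genes entered the Benjamini-Hochberg adjustment. All 35 members passed this filter. A log2 fold change on this scale understates the change of low genes. Limma-voom on the recovered reads was added after seeing the data. The background sets were cut at 0.1% of reads in 974 receptor genes, a division made from the data. The fit was tested on simulated counts with the same dispersion for every gene and without background sets. That test therefore does not cover the effect of the background sets.

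The members and lists were chosen with earlier results of these data known. Every member past an adjusted p of 0.05 is named, as are Car9, Slc2a1, Pgk1 and Ldha in each comparison and up to 4 further pathway genes with the lowest p. Other members are given by range, or by name where a role is described, a choice made after seeing their values. Gene positions are those of GENCODE vM21, and lengths are the union of its exons. The symbol Aldoa has 2 gene entries, of which the one with the lower identifier was used. Depth was 4214675 to 18256745 reads per library. Reads carry no molecular identifiers, so a read number is not a number of molecules. Figures were drawn with matplotlib 3.10.9 in Python 3.11.15.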

Additional observations from a re-analysis of the deposited data

Results flagged for a closer look

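A library that stood far from the others of its group was looked for in each of the 35 genes and the 3 groups of 4 or 5 libraries. Of 105 such groups 5 were marked, where chance marks about 1 in 20. All 5 were glycolytic enzymes. Hk1 had 154 normalized counts in Type 2 Control 1 and 731 to 949.6 in the other Type 2 Control libraries. Pfkl, a phosphofructokinase subunit, had 222 in the same library and 767 to 940.0 in the others. Type 2 Control 1 was the shallowest library, with 4214675 reads and 58.2% of reads in Gm10800, and the part of this in the low values was not tested. Gapdh had 17699.7 in Type 2 TAM depleted 2 and 7283 to 8452 in the other libraries of that group. It also had 19246 in Type 1 Control 5 and 6030.3 to 8086 in the other Type 1 Control libraries. Pgk1 had 1006 in Type 2 TAM depleted 4 and 1851 to 2015 in the others.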

How the results depend on the processing

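Alternatives were pseudocounts, filters, scalings, library quality weights, a replicate block, a background block, the background sets alone, limma-voom and the leaving out of each library. Of members past the threshold in Type 2 depletion, 4 in the analysis reported, 7 passed with upper quartile scaling or the background block, 5 with quantile normalization, of which 2 were among the 4, 2 in the high-background and 0 in the low-background libraries alone, 0 with quality weights, and 0 to 4 without 1 library. Between the controls, 4 became 7 with quantile normalization, 15 with quality weights and 3 to 5 without 1 library. Quality weights gave 19 in Type 1 depletion, 2 for the response difference and 1 between the depleted groups. HIF targets minus enzymes in the median log2 fold change ranged from -0.82 to -0.39 in Type 2 depletion, -0.44 to -0.19 in Type 1 depletion, -0.65 to -0.24 for the difference of responses, 0.21 to 0.73 between the controls and -0.22 to 0.21 between the depleted groups when 1 library was left out. For the difference of responses it was -0.91 with quantile normalization and reversed to 0.037 with quality weights. Between the controls it was 0.89 with quantile normalization, 0.80 with the background block and 0.96 in high-background libraries alone, which was added after seeing the data. Some single genes changed sign: Pgk1 in Type 2 depletion was 0.063 in high-background libraries alone, Car9 in Type 1 depletion 0.32 with quantile normalization, and Ldha between the controls -0.036 with the background block and -0.0084 in high-background libraries alone. Without 1 library, Ldha between the controls ranged from -0.029 to 0.54, and between the depleted groups Car9 ranged from -1.44 to 0.76, Slc2a1 from -0.020 to 0.61 and Pgk1 from -0.16 to 0.45. The causes were not tested.

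Over all genes, Type 2 depletion passed 627 higher and 329 lower, against 674 and 618 with upper quartile scaling, 653 and 595 with limma-voom, 130 and 306 with quality weights, 1493 and 1142 with the background block and 440 and 85 in high-background libraries alone. Between the controls it passed 603 and 216, against 626 and 446 with upper quartile scaling, 1079 and 725 with quantile normalization, 2646 and 3913 with quality weights and 902 and 1441 with limma-voom. In Type 1 depletion quality weights passed 5209 and 8512, against 0. Between the depleted groups 15 and 34 passed, against 178 and 251 with quality weights and 68 and 147 with the background block. Upper quartile scaling moved the median of all genes in Type 2 depletion to -0.41, against -0.21. Depth limits the low members, since Ankrd37 had as few as 3 reads in a library.

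Replicate numbers are shared between groups. Deviations of same-numbered libraries had correlations of -0.675, 0.495, 0.303 and -0.602 in Type 2 and -0.0525, -0.158 and 0.371 in Type 1. In Type 2 the sign was positive where both libraries were of the same background set and negative where they were not. These values therefore cannot show whether the numbers pair the libraries. With the replicate block 4 members passed in Type 2 depletion, 0 in Type 1 depletion and for the response difference, 4 between the controls and 0 between the depleted groups, and 425 genes were higher and 215 lower in Type 2 depletion.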
